A study of Mus musculus with 32 samples.

Results

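Lungs of C57BL/6 mouse pups that had received scrambled oligonucleotide 1 were compared with lungs of untreated pups of the same age. The 8 libraries were chosen by their treatment label, 4 labelled Scrambled 1 and 4 labelled Untreated, of 32 libraries in the series. All 8 came from whole lung taken on postnatal day 14. The scrambled 1 pups had been injected intraperitoneally on postnatal days 1 and 3 with 10 mg/kg of a custom locked nucleic acid inhibitor probe dissolved in nuclease-free water, and the untreated pups had no injection. The comparison therefore takes in the oligonucleotide, its solvent and the act of injection together, and these cannot be told apart in it. The study, on how control interventions affect gene expression in the developing lung, also holds 3 other groups of day 14, each of 4 libraries. Scrambled 2 pups had a second scrambled probe of the same kind at the same dose on the same days, water pups had the solvent at 10 µl/g on the same days, and daily saline pups had saline at 25 µl/g from day 1 to day 13. Pups were randomized at birth with litters balanced, per the series' design text. No transgene, Cre line or mutation is named for any of these groups, and the labels do not tie a library to an animal or litter, so a p-value here reflects only how these libraries vary.

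An antagomiR is a chemically modified antisense oligonucleotide that pairs with a microRNA and blocks it, and a scrambled one has a sequence meant to pair with no microRNA, so that it shows what the chemistry and the injections do by themselves. Oligonucleotides of this kind are known to collect in liver and kidney, and nucleic acids taken up by cells can be sensed by endosomal and cytoplasmic receptors that induce interferon and inflammatory genes. At the age sampled the mouse lung is in alveolarisation, when myofibroblasts lay down elastin and other matrix at the tips of new septa while the lymphoid compartment is still filling.

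The libraries held 8576368 to 10816429 exon reads in the scrambled 1 group and 7918537 to 9460434 in the untreated group. All 14 defining markers of lung cells were detected, the lowest at 16 CPM (exon reads of a gene scaled to the size of its library) in any of the 8 libraries. Reads in introns made up 13.9 ± 0.625% of reads in genes in scrambled 1 libraries and 12.7 ± 1.95% in untreated libraries (SD, n = 4 each; exact permutation test over 70 arrangements, two-sided, p = 0.314), and untreated replicate 4 stood highest at 15.5%. Xist, transcribed from the inactive X chromosome of females, exceeded 10 CPM of reads in genes in 2 of 4 scrambled 1 libraries and in 3 of 4 untreated libraries, so the groups differed in their mix of sexes. Of the other day 14 groups, 1 of 4 scrambled 2, 0 of 4 water and 2 of 4 daily saline libraries exceeded it. Water replicate 3 stood apart from the other water libraries, with summed levels of fat genes at 1088 CPM, against 152 to 206 CPM in the others, and of skeletal muscle genes at 251 CPM, against 12.3 to 21.2 CPM.

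Few genes differed between scrambled 1 and untreated lungs. Those lower in scrambled 1 lungs included genes of secreted matrix proteins (Aspn, Thbs2, Tnc, Tgfbi), and those higher included B cell genes (Cd22, H2-Ob). Of 14179 genes tested on counts of exon reads with edgeR's quasi-likelihood test, 19 were higher and 24 were lower in scrambled 1 lungs at a Benjamini-Hochberg adjusted p under 0.05, which is 0.134% and 0.169% of the genes tested. The changes were small: 10 of the 43 genes reached 1.5-fold, and log2 fold changes of the 43 ran in size between 0.21 and 1.46. Over all genes the median log2 fold change was -0.00258, 49.0% of genes lay above 0, and the median SE was 0.09. The counts were lower in each fit that left out 1 of the 8 libraries. Leaving out 1 scrambled 1 library at a time left 5 higher and 7 lower genes without replicate 1, 3 and 19 without replicate 2, 2 and 4 without replicate 3, and 18 and 17 without replicate 4. Leaving out 1 untreated library left 4 higher and 9 lower genes without replicate 1, 2 and 5 without replicate 2, 5 and 16 without replicate 3, and 4 and 14 without replicate 4. Genes that passed in all 8 of these fits included Prss35, Itih5, Aspn and Thbs2, which were lower, and H2-Ob, which was higher.

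**Figure D1:**
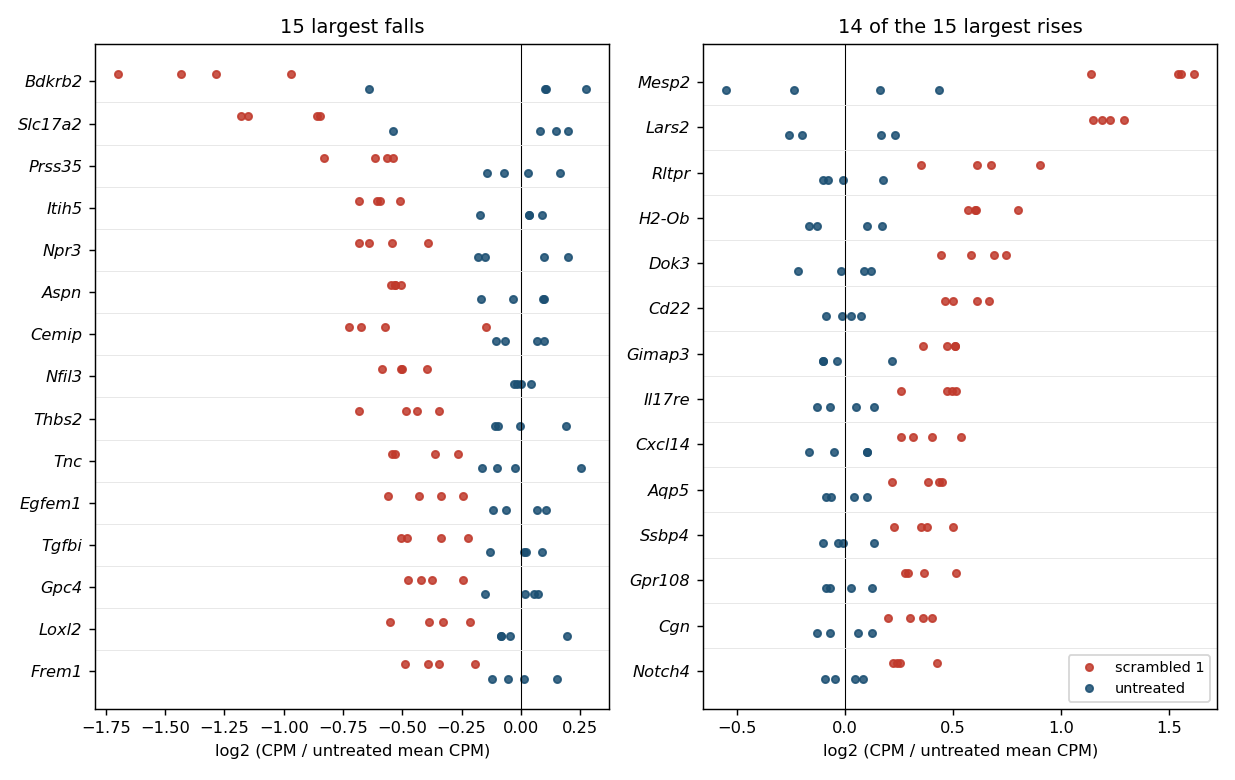
Level in each library of the 15 largest falls (left) and 14 of the 15 largest rises (right) by log2 fold change among genes with separate ranges, as log2 of CPM over the untreated mean CPM on the horizontal axis, with 1 point per library (scrambled 1 in red, above; untreated in blue, below). The red points of Prss35 lie between 73.1 and 89.4 CPM, and its blue points between 118 and 146 CPM.

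The genes lower in scrambled 1 lungs included several that code for secreted proteins of the extracellular matrix. CPM ranges of the groups lay apart in 23 of the 24 falls, whereas 2.5% of all genes tested had every scrambled 1 library below every untreated one. Since the genes were picked by this same difference, that count describes them and tests nothing.

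Bases before a RefSeq start of the 4 falls that passed in every leave-one-out fit are shown because these genes are the firmest calls. Each runs for 250 bases up to the 5′-most start that RefSeq gives the gene on GRCm38.p6, read 5′ to 3′ on the gene's strand, for Prss35 at chr9:86743383-86743632, plus strand, Itih5 at chr2:10153293-10153542, plus strand, Aspn at chr13:49544193-49544442, plus strand, and Thbs2 at chr17:14694263-14694512, minus strand. The gene record of Prss35 in the files begins before that start and holds all 250 bases of its stretch, and 7 bases of the Itih5 stretch lie inside its record. Capitals mark the TATA box letters TATAAA on either strand.
Prss35: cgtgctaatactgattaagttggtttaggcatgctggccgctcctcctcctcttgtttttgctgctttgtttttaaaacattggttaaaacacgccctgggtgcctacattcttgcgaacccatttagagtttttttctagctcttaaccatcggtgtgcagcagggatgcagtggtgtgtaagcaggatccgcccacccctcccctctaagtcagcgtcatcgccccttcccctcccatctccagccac
Itih5: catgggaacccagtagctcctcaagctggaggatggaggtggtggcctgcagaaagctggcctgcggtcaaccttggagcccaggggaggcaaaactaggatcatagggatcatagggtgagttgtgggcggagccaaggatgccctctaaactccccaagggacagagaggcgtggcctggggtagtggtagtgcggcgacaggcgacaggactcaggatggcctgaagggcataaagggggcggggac
Aspn: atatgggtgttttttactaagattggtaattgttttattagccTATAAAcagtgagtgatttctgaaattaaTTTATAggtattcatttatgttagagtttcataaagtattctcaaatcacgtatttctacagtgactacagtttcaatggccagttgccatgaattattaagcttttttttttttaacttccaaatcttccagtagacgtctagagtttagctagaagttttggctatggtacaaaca
Thbs2: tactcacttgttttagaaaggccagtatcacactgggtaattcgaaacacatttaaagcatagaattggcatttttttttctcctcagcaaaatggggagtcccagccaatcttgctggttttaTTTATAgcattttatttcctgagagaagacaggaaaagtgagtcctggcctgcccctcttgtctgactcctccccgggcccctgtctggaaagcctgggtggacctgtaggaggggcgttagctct
The Aspn stretch held the letters 207 and 178 bases before the start and the Thbs2 stretch held them 126 bases before it, and the Prss35 and Itih5 stretches held none. Of the falls, 21 had such a stretch in the RefSeq table and 4 of these held TATAAA, as did 0 of 17 rises and 13.0% of 27025 stretches of this length over all genes. Letters of other motifs, TGANTCA for AP-1 and GGAATG for TEAD factors, searched on both strands, were present in 0 and 3 of these falls and in 0 and 2 of these rises, beside 6.85% and 12.6% of all stretches. A match of letters is a description of the window and not a site.

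Prss35, which codes for a secreted protein of the trypsin-like serine protease family (chr9:86743240-86758443, plus strand in the files' coordinates), gave the smallest adjusted p of all genes. It had 73.1, 89.4, 85 and 88 CPM in the scrambled 1 libraries, against 124, 146, 118 and 133 CPM in the untreated libraries. No scrambled 1 library reached the lowest untreated one. The gene's log2 fold change was -0.63 (SE 0.08, adjusted p = 0.000237). The other day 14 groups lay between, at 109 ± 11.1 CPM in scrambled 2 and 108 ± 5.99 CPM in water lungs, except daily saline lungs at 150.0 ± 10.7 CPM (SD, n = 4 each).

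Itih5, a heavy chain of the inter-alpha-trypsin inhibitor family that binds hyaluronan (chr2:10153536-10256529, plus strand), had 43.9, 46.5, 41.3 and 43.6 CPM in scrambled 1 lungs, against 68, 67.9, 58.8 and 70.6 CPM in untreated lungs. The scrambled 1 values were tightly grouped and all lay below the untreated ones. The log2 fold change was -0.60 (SE 0.08, adjusted p = 0.000361). Scrambled 2 lungs averaged 60.0 ± 4.86 CPM, water lungs 61.7 ± 7.95 CPM and daily saline lungs 69.8 ± 0.295 CPM, all nearer to the untreated mean of 66.3 CPM than to the scrambled 1 mean of 43.8 CPM.

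Aspn codes for asporin, a small leucine-rich proteoglycan that binds collagen and transforming growth factor beta (chr13:49544443-49567565, plus strand). Its level was 377, 380.3, 381 and 388 CPM in scrambled 1 lungs, against 588, 587, 489 and 537 CPM in untreated lungs, again with no overlap. The log2 fold change was -0.53 (SE 0.08, adjusted p = 0.00113). Only 26.3% of its exon reads mapped uniquely, with a log2 fold change of -0.46 in unique reads (adjusted p = 0.00664). Thbs2, the antiangiogenic matricellular protein thrombospondin 2 (chr17:14665500-14694262, minus strand), had 81.2, 102, 96 and 93.1 CPM in scrambled 1 lungs, against 121, 122, 129.9 and 149 CPM in untreated lungs. Scrambled 1 replicate 1 was the lowest and untreated replicate 4 the highest, and the groups did not overlap. The log2 fold change of Thbs2 was -0.48 (SE 0.07, adjusted p = 0.00163).

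Further matrix genes fell by less. Tnc, which codes for the matricellular glycoprotein tenascin C, had 404, 489.5, 408 and 458 CPM in scrambled 1 lungs, against 525, 579, 548 and 702 CPM in untreated lungs, with untreated replicate 4 standing highest. This gave a log2 fold change of -0.42 (SE 0.08, adjusted p = 0.0152), and it passed in 5 of 8 leave-one-out fits. Tgfbi, a secreted matrix protein induced by transforming growth factor beta, had 403, 482, 396 and 445 CPM in scrambled 1 lungs, against 570.0, 567, 514 and 598 CPM in untreated lungs, without overlap. Its log2 fold change was -0.38 (SE 0.07, adjusted p = 0.0148), and it passed in 5 of the 8 fits. Loxl2, a lysyl oxidase that cross-links collagen, had 208, 263, 233 and 243 CPM in scrambled 1 lungs, against 288, 296, 288 and 349 CPM in untreated lungs. The groups were separate, with untreated replicate 4 far above the other untreated libraries, and the log2 fold change was -0.37 (SE 0.07, adjusted p = 0.0196). Unique reads were 66.7% of those of Loxl2, with a log2 fold change of -0.37 in unique reads (adjusted p = 0.0476). Loxl2 passed in 4 of the 8 leave-one-out fits.

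Egfem1, named for its EGF-like and EMI domains, averaged 90.7 ± 8.36 CPM in scrambled 1 lungs and 119 ± 8.61 CPM in untreated lungs (SD, n = 4 each), with a log2 fold change of -0.39 (SE 0.07, adjusted p = 0.00826). It passed in 7 of 8 leave-one-out fits, and 51.7% of its reads were unique, with a log2 fold change of -0.42 in unique reads (adjusted p = 0.0293). Gpc4, a heparan sulphate proteoglycan of the cell surface, averaged 77.5 CPM in scrambled 1 lungs and 101 CPM in untreated lungs, at a log2 fold change of -0.38 (SE 0.07, adjusted p = 0.0189). Frem1, a basement membrane protein that anchors epithelium to mesenchyme, averaged 145 CPM in scrambled 1 lungs and 185 CPM in untreated lungs, at a log2 fold change of -0.35 (SE 0.08, adjusted p = 0.0483). Gpc4 passed in 4 and Frem1 in 1 of the 8 leave-one-out fits. Cemip, which is needed for the breakdown of hyaluronan, had 31.1, 44.7, 33.3 and 29.9 CPM in scrambled 1 lungs, against 47.3, 46, 51.9 and 53 CPM in untreated lungs. Scrambled 1 replicate 2 lay close to the untreated libraries, the log2 fold change was -0.52 (SE 0.10, adjusted p = 0.0233), and the call was kept in 1 of the 8 fits.

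**Figure D2:**
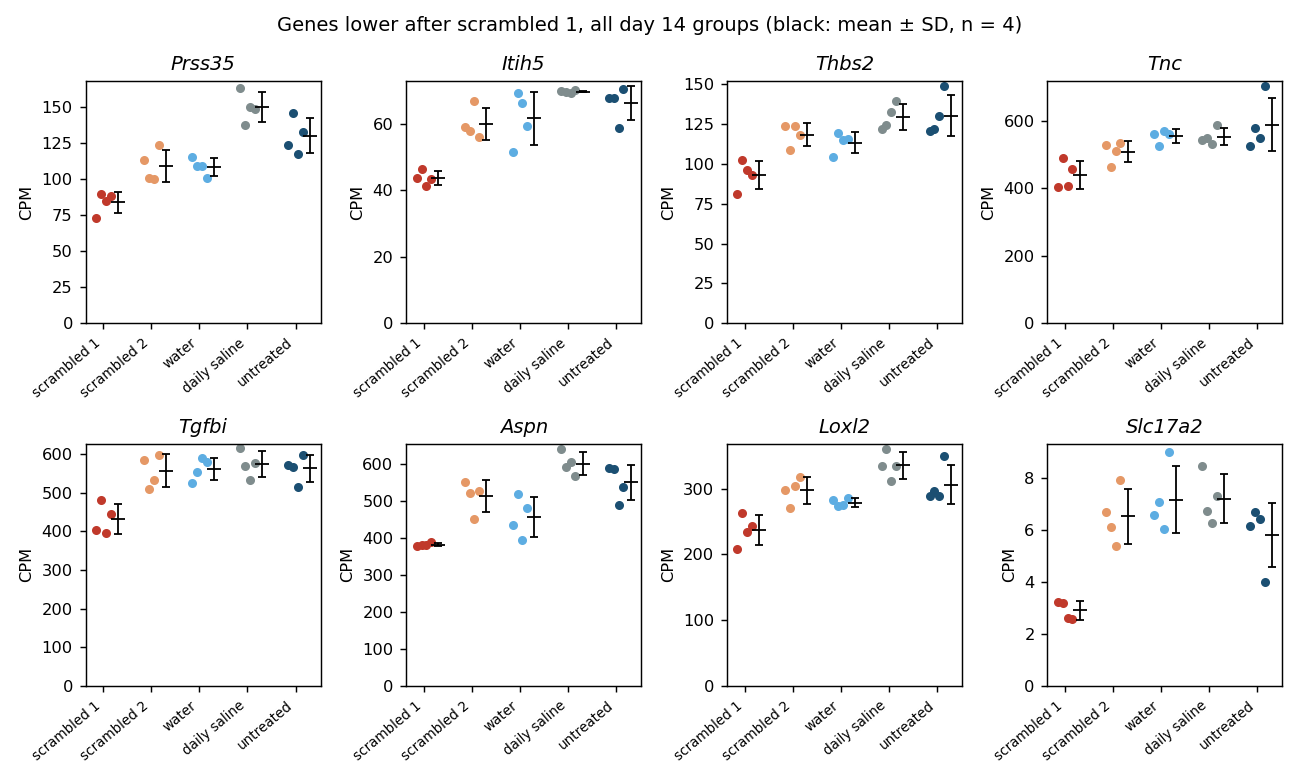
CPM of 8 genes lower in scrambled 1 lungs, with 1 point per library in each of the 5 groups of day 14 and the mean ± SD of 4 libraries in black. Every scrambled 1 library lies below every library of the other groups for each gene shown except Tnc, and Slc17a2 averages 2.91 CPM in scrambled 1 and 5.82 CPM in untreated libraries.

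Among receptors, transporters and regulators, the largest fall by log2 fold change was in Bdkrb2, the bradykinin B2 receptor. It had 2.89, 2.41, 3.98 and 3.2 CPM in scrambled 1 lungs, against 8.4, 9.44, 8.38 and 5.0 CPM in untreated lungs, with a log2 fold change of -1.31 (SE 0.25, adjusted p = 0.0196). Untreated replicate 4 was the nearest to the scrambled 1 libraries, and Bdkrb2 passed in 2 of 8 leave-one-out fits. Its mean was also 2.96 CPM in scrambled 2 and 3.71 CPM in water lungs, beside 3.12 CPM in scrambled 1 lungs (adjusted p = 0.942 for scrambled 1 over scrambled 2 and 0.774 for scrambled 1 over water). Slc17a2, of the sodium-phosphate cotransporter family, had 3.23, 3.21, 2.62 and 2.56 CPM in scrambled 1 lungs, against 6.15, 6.68, 6.44 and 4.0 CPM in untreated lungs, and the groups were apart. edgeR put the log2 fold change at -1.01 (SE 0.19, adjusted p = 0.0195), and it passed in 3 of 8 leave-one-out fits. Npr3, the clearance receptor for natriuretic peptides, averaged 61 ± 5.6 CPM in scrambled 1 lungs and 89.9 ± 11.6 CPM in untreated lungs (SD, n = 4 each), at a log2 fold change of -0.56 (SE 0.10, adjusted p = 0.0189). Npr3 passed in 4 of the 8 fits. Nfil3, a transcriptional repressor tied to the circadian clock and to lymphocyte development, had 11.8, 12.5, 12.5 and 13.5 CPM in scrambled 1 lungs, against 17.7, 18.2, 17.5 and 17.3 CPM in untreated lungs. The values of either group were tightly grouped, the log2 fold change was -0.49 (SE 0.11, adjusted p = 0.0484), and the call was lost in every leave-one-out fit.

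The other 9 falls had log2 fold changes from -0.42 in Slc27a6, a fatty acid transporter, to -0.21 in Grb10, an imprinted adaptor of insulin receptor signalling. Slc27a6 was the 1 fall whose ranges overlapped, through scrambled 1 replicate 2. Between these lay Net1, a RhoA exchange factor, Mark1, a microtubule affinity-regulating kinase, Olfml2b, Serpine2, the protease inhibitor nexin 1, the NADPH oxidase Nox4, Fstl1 and Dkk3. Fstl1, a secreted glycoprotein, had 19.8% unique reads and a log2 fold change of -0.22, and it lost the call with a log2 fold change of -0.27 in unique reads (adjusted p = 0.457). These 9 genes were outside the 15 largest falls with separate ranges.

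Genes higher in scrambled 1 lungs included B cell genes. H2-Ob, the beta chain of H2-O, which modulates peptide loading on MHC class II in B cells (chr17:34238895-34245908, plus strand), had 19.2, 22, 18.8 and 19.2 CPM in scrambled 1 lungs, against 11.5, 14.2, 13.5 and 11.2 CPM in untreated lungs. The groups were apart, with scrambled 1 replicate 2 the highest, and the log2 fold change was 0.64 (SE 0.10, adjusted p = 0.00436). Separate ranges with scrambled 1 above held in 19 of 19 rises and in 2.58% of all genes tested.

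Cd22, an inhibitory coreceptor of B cells that binds sialic acid, had 19.4, 21.4, 22.3 and 19.9 CPM in scrambled 1 lungs, against 13.9, 14.3, 13.2 and 14.8 CPM in untreated lungs, without overlap. The fitted log2 fold change was 0.56 (SE 0.11, adjusted p = 0.0266). Dok3, an adaptor that restrains B cell receptor signalling, had 14.3, 13.3, 14.9 and 12.1 CPM in scrambled 1 lungs, against 8.78, 7.64, 9.66 and 9.45 CPM in untreated lungs, also without overlap. Its log2 fold change was 0.62 (SE 0.13, adjusted p = 0.0266). Cd22 passed in 1 and Dok3 in 2 of the 8 leave-one-out fits.

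The B cell list, chosen with earlier results of these data known, had 17 members tested, of which 2 rose (Cd22 among them), 0 fell and 16 had a log2 fold change above 0, with a median of 0.36 beside -0.00258 over all genes. Its members summed to 334, 363, 309 and 311 CPM in scrambled 1 lungs, against 276, 274, 248 and 231 CPM in untreated lungs, and the sums did not overlap. These sums take in the called members, picked by this same difference, so their separation is a description. The list's median over untreated was 0.16 for scrambled 2, 0.25 for water and 0.03 for daily saline. In whole lung, more cells of a type and more RNA per cell cannot be told apart. Members below the threshold included Cd37, a tetraspanin of B cells, with a log2 fold change of 0.41 (adjusted p = 0.0845), and Blk, a B cell Src kinase, at 0.55 (adjusted p = 0.207). Other immune lists had no called member. T and NK cell genes had 21 of 23 above 0 and a median of 0.27, with sums of 189, 178, 166 and 177 CPM in scrambled 1 lungs, against 156, 163, 149 and 159 CPM in untreated lungs. Their median over untreated was higher in water, at 0.32, and was 0.14 in scrambled 2 and -0.10 in daily saline, and water replicate 3 had the highest sum of the water libraries, 236 CPM. Antigen presentation genes had 18 of 18 above 0 and a median of 0.17, and their sums overlapped, at 2601, 2599.6, 2400.0 and 2346 CPM in scrambled 1 lungs, against 2215, 2175, 2623 and 1969.7 CPM in untreated lungs. Genes of thymus and lymphoid tissue, a check for neighbouring tissue in the sample, had 0 of 7 past the threshold, 7 above 0 and a median of 0.35. Their median over untreated was higher in scrambled 2, at 0.44, and in water, at 0.45, and was -0.06 in daily saline. The part of these genes in the B cell values was not tested.

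**Figure D3:**
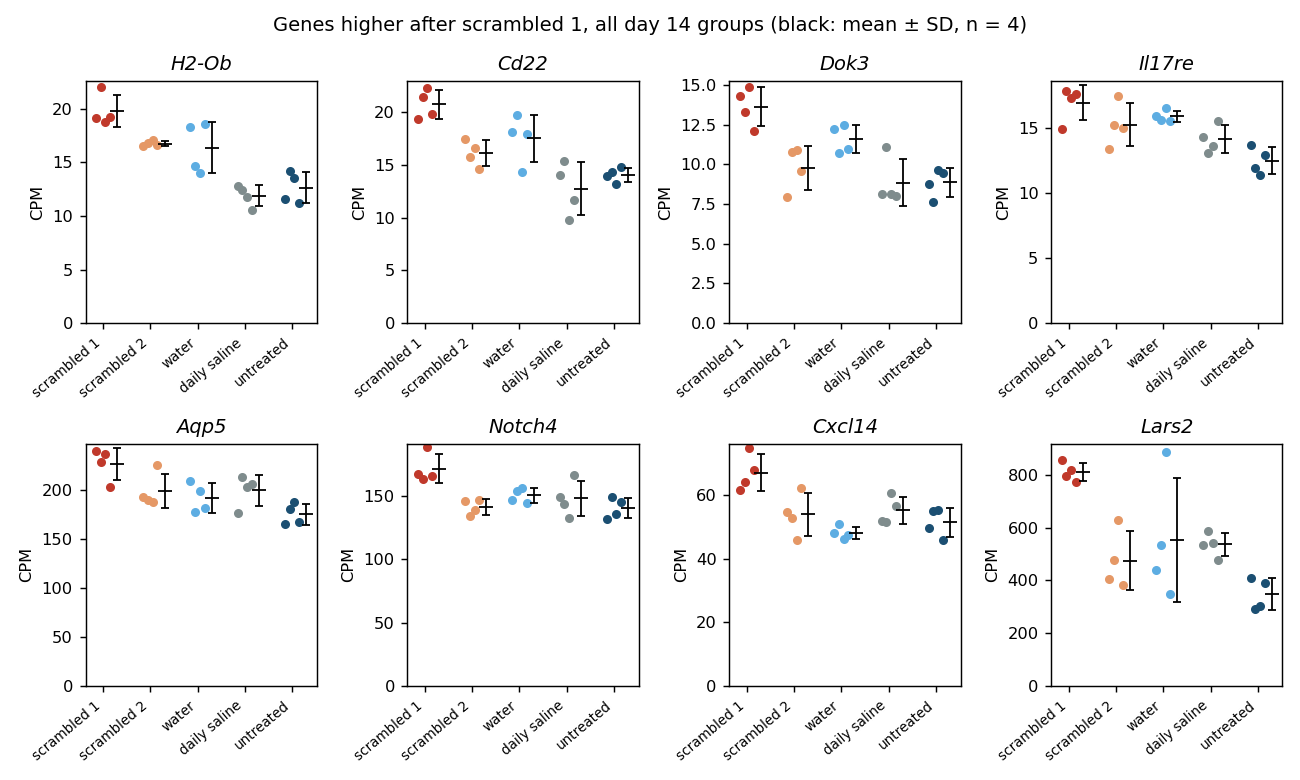
CPM of 8 genes higher in scrambled 1 lungs, with 1 point per library in each of the 5 groups of day 14 and the mean ± SD of 4 libraries in black. H2-Ob averages 19.8 CPM in scrambled 1, 16.7 CPM in scrambled 2, 16.4 CPM in water, 11.9 CPM in daily saline and 12.6 CPM in untreated libraries, and the highest water point of Lars2, 888 CPM, is water replicate 3.

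Other rises were in genes of lymphocytes, epithelium and endothelium and in genes of no list. Rltpr, an actin regulator needed for CD28 costimulation of T cells, averaged 9.22 ± 1.44 CPM in scrambled 1 lungs and 5.88 ± 0.534 CPM in untreated lungs, at a log2 fold change of 0.65 (SE 0.14, adjusted p = 0.0483). Gimap3, a GTPase of lymphocytes, averaged 16.3 ± 0.78 CPM in scrambled 1 lungs and 11.8 ± 1.3 CPM in untreated lungs, at a log2 fold change of 0.46 (SE 0.09, adjusted p = 0.0266). Each of these passed in 1 of the 8 leave-one-out fits.

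Aqp5, the water channel of alveolar type 1 cells, had 239.9, 229, 237 and 204 CPM in scrambled 1 lungs, against 165, 181, 188 and 168 CPM in untreated lungs, without overlap. The gene's log2 fold change was 0.37 (SE 0.07, adjusted p = 0.0214). Unique reads were 14.8% of its reads, with a log2 fold change of 0.53 in unique reads (adjusted p = 0.0457), and it passed in 2 of 8 leave-one-out fits. It was the 1 member to rise of 17 alveolar type 1 genes tested, of which 17 lay above 0 with a median of 0.19. The list's median over the same untreated libraries was 0.23 for scrambled 2, 0.17 for water and 0.19 for daily saline, and for scrambled 1 over water it was 0.00601. The list summed to 10430.1, 10157, 10370.5 and 8579.7 CPM in scrambled 1 lungs, against 8241, 8579, 8871 and 8897 CPM in untreated lungs, and scrambled 1 replicate 4 lay within the untreated range. Its member Ager had 1798, 1555, 1726 and 1291 CPM in scrambled 1 lungs, against 1152, 1271, 1304 and 1164 CPM in untreated lungs, with overlap, and a log2 fold change of 0.38 (adjusted p = 0.104). Alveolar type 2 genes had 4 of 21 above 0, a median of -0.12 and no called member.

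Notch4, a Notch receptor of endothelium, averaged 171 ± 11.4 CPM in scrambled 1 lungs and 140.4 ± 7.95 CPM in untreated lungs (SD, n = 4 each), at a log2 fold change of 0.29 (SE 0.06, adjusted p = 0.0483). With all reads in the gene in place of exon reads the direction turned, to a log2 fold change of -0.16 (adjusted p = 0.738). Cxcl14, a chemokine made by fibroblasts and epithelium, had 61.5, 64, 74.6 and 67.9 CPM in scrambled 1 lungs, against 49.5, 55, 55.2 and 45.7 CPM in untreated lungs, without overlap. This gave a log2 fold change of 0.38 (SE 0.08, adjusted p = 0.0453). Il17re, a receptor subunit for interleukin 17C, had a log2 fold change of 0.44 (SE 0.10, adjusted p = 0.0466), and Cgn, the tight junction protein cingulin, one of 0.32 (SE 0.07, adjusted p = 0.032). Notch4 and Cxcl14 passed in no leave-one-out fit, Il17re in 1 and Cgn in 2.

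The 2 rises with the highest log2 fold change were Mesp2 and Lars2. Mesp2, a transcription factor of somite segmentation, was near the limit of detection, with 1.73, 2.41, 2.31 and 2.29 CPM in scrambled 1 lungs, against 0.878, 1.06, 0.537 and 0.667 CPM in untreated lungs. Its log2 fold change was 1.46 (SE 0.30, adjusted p = 0.0266), and it passed in 1 of 8 leave-one-out fits. Mesp2 averaged 1.11 CPM in scrambled 2, 1.49 CPM in water and 1.78 CPM in daily saline lungs. Its mean was 2.18 CPM in scrambled 1 and 0.786 CPM in untreated lungs. Lars2, the mitochondrial leucyl-tRNA synthetase (chr9:123366940-123462666, plus strand), had 855, 796, 817 and 774 CPM in scrambled 1 lungs, against 409, 292, 304 and 391 CPM in untreated lungs. The groups were far apart, the log2 fold change was 1.22 (SE 0.23, adjusted p = 0.0466), and 83.5% of the reads were unique, with a log2 fold change of 1.20 in unique reads (adjusted p = 0.0476). It passed in no leave-one-out fit, and those fits keep the libraries of the other day 14 groups. With the spread estimated in edgeR from the 8 libraries alone, Lars2 passed (adjusted p = 0.000294). Water lungs had 441, 533, 888 and 349 CPM of Lars2, with water replicate 3, the library high in fat and muscle genes, far above the rest. Lars2 averaged 474 ± 111 CPM in scrambled 2 and 536 ± 45.2 CPM in daily saline lungs (SD, n = 4 each). Ssbp4, a single-stranded DNA binding cofactor of LIM-domain regulators, and Gpr108, a membrane protein of the secretory pathway, each had a log2 fold change of 0.36 (adjusted p = 0.0484 in both). Ssbp4 passed in 1 of 8 leave-one-out fits and Gpr108 in none. Gpr108 had 81.5% unique reads and did not pass in them (adjusted p = 0.0946). The other 4 rises, outside the 15 largest, had log2 fold changes from 0.26 in Smpd1, the acid sphingomyelinase, to 0.28 in Fam174b, and also took in Gltp, a glycolipid transfer protein, and Hmha1, a GTPase-activating protein of blood cells.

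The lists of interferon, nucleic acid sensing, inflammatory, microRNA and splicing genes held no gene past the threshold. Interferon-stimulated genes had 0 of 34 called, 25 above 0 and a median of 0.07, and sums of 981, 1107, 1132 and 1057 CPM in scrambled 1 lungs, against 1069, 1057, 1118 and 937 CPM in untreated lungs, which overlapped. Isg20, an interferon-induced nuclease, had a log2 fold change of 0.20 (adjusted p = 0.714). Sensors of foreign nucleic acid and their adaptors had 0 of 30 called and a median of 0.07. In this list Ifi204, a DNA sensor, had 4.27, 4.36, 5.66 and 4.3 CPM in scrambled 1 lungs, against 2.63, 3.39, 2.58 and 2.67 CPM in untreated lungs, which did not overlap, yet its log2 fold change of 0.72 did not pass (adjusted p = 0.37). Acute inflammatory genes had 0 of 18 called (median 0.07), and the genes of microRNA processing and Argonaute proteins 0 of 26 (median -0.04). Splicing kinases and factors had 0 of 30 called, 2 above 0 and a median of -0.06, and untreated replicate 4, with the highest share of intronic reads of the 8 libraries, also had their highest sum, 8986 CPM.

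Few members of the matrix and mesenchymal lists passed the threshold. Hyaluronan genes had 2 of 19 lower, Itih5 and Cemip, 0 higher, 6 above 0 and a median of -0.12. They summed to 953, 1002, 942 and 977 CPM in scrambled 1 lungs, against 1079, 1052, 1047 and 1099 CPM in untreated lungs, without overlap. Sums of scrambled 2, 953 to 1053 CPM, and of water, 959 to 1033 CPM, overlapped those of scrambled 1. Daily saline sums, 1050 to 1126 CPM, lay above the scrambled 1 sums. The smooth muscle and myofibroblast list had 2 of 20 lower, Aspn and Tgfbi, 0 higher, 4 above 0 and a median of -0.13. Its median over untreated was -0.06 for scrambled 2, -0.15 for water and 0.03 for daily saline. For scrambled 1 over water it was -0.01. The list's sums were 3232, 3078, 3136 and 3214 CPM in scrambled 1 lungs, against 3717, 3677, 3482 and 3403 CPM in untreated lungs, also without overlap. Water sums, 3207 to 3481 CPM, overlapped those of scrambled 1. Sums of scrambled 2, 3381 to 3660 CPM, and of daily saline, 3551 to 3804 CPM, lay above those of scrambled 1. The sums of this list and of the hyaluronan list take in called members, picked by this same difference, so their separation is a description. Aspn averaged 381 CPM in scrambled 1 and 550 CPM in untreated lungs, and Tgfbi 431 and 562 CPM. Elastic fibre and cross-linking genes had 1 of 26 lower, Loxl2, and a median of -0.02, and collagen chains had 0 of 22 called, 17 above 0 and a median of 0.08. Among the 52 lists, sums lay apart for hyaluronan, smooth muscle, B cell, T and NK cell and aerocyte genes, and overlapped in the rest. Aerocyte sums barely separated, with 4993.26 CPM in the lowest scrambled 1 library and 4993.05 CPM in the highest untreated one. That list had 0 called genes. Ranges of single genes lay apart with scrambled 1 above in 2.58% and below in 2.5% of all genes tested. No such share was worked out for sums, so these separations are a description.

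Of all 52 lists, 9 held a called gene. The genes on the lists that were tested, 1015 in number, had 1.08% called, beside 0.303% of all genes tested, and 32 of the 43 called genes were on no list. As the lists were chosen with results known, these shares are a description. The remaining called list members were single: Nox4 among 29 antioxidant genes, Nfil3 among 19 clock genes, Cxcl14 among 24 fibroblast genes and Tgfbi also among 34 genes of transforming growth factor beta and BMP signalling. In the clock list Nr1d1, a repressor of the core clock, had 42.5, 40.1, 46.4 and 41.8 CPM in scrambled 1 lungs, against 35.1, 34.5, 30.7 and 34.5 CPM in untreated lungs, and its log2 fold change of 0.34 missed the threshold (adjusted p = 0.0705). Neutrophil genes had no called member of 21, but 4 above 0 and a median of -0.40, and the calprotectin subunit S100a9 had 17.1, 26.4, 20.3 and 18.6 CPM in scrambled 1 lungs, against 22.8, 33.3, 34.4 and 29.5 CPM in untreated lungs, with overlap (log2 fold change -0.55, adjusted p = 0.302). Their sums overlapped too, at 599, 635, 491 and 475 CPM in scrambled 1 lungs, against 741, 546, 649 and 588 CPM in untreated lungs. The neutrophil median over untreated was also below 0 in the other groups, at -0.20 for scrambled 2, -0.21 for water and -0.19 for daily saline. Heart, fat and skeletal muscle genes, which can enter a lung sample at dissection, had no called member, with medians of -0.39, 0.27 and 0.16.

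**Figure D4:**
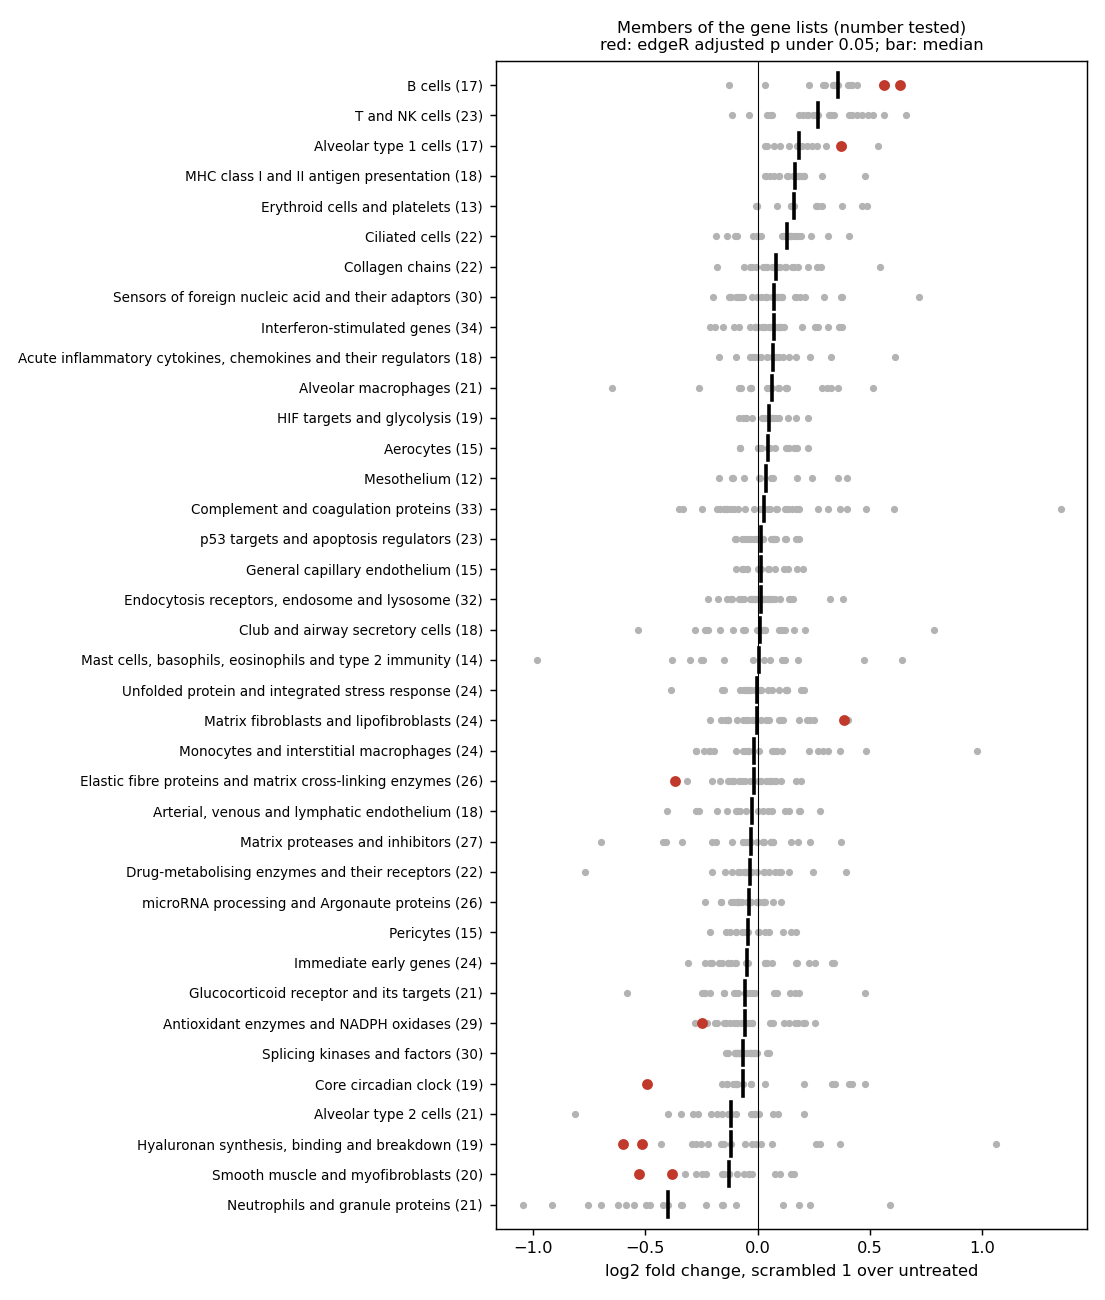
Log2 fold change, scrambled 1 over untreated, of each member (grey points), the called members (red points) and the median (black bar) of the response, matrix and cell type lists, with the number of genes tested in brackets. B cell genes head the plot with a median of 0.36 and neutrophil genes end it with -0.40.

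Scrambled 1 was also set against the solvent and against the second probe in the same fit, which tests whether a gene's difference from untreated differs from theirs. The comparisons share libraries, and values are given side by side. Of the 43 genes, 6 also passed for scrambled 1 over water (0.12% of all genes tested passed there): Slc17a2, Itih5, Egfem1 and Tgfbi, which were lower, and Gltp and Cxcl14, which were higher. No water library exceeded 10 CPM of Xist, against 2 of 4 scrambled 1 libraries, and with Xist as a covariate 2 of the 43 passed, Itih5 and Slc17a2. Without water replicate 3, a fit chosen after the data were seen, 7 passed, the same 6 and Ssbp4. Tgfbi averaged 431 ± 39.7 CPM in scrambled 1 lungs and 562 ± 28.9 CPM in water lungs (SD, n = 4 each), with a log2 fold change of -0.38 (SE 0.07, adjusted p = 0.0158). For Slc17a2 the log2 fold change over water was -1.30 (SE 0.18, adjusted p = 0.00272), for Itih5 -0.50 (SE 0.08, adjusted p = 0.00538) and for Egfem1 -0.38 (SE 0.07, adjusted p = 0.0136). For Cxcl14 it was 0.48 (SE 0.08, adjusted p = 0.0133) and for Gltp 0.32 (SE 0.06, adjusted p = 0.0161). H2-Ob over water had a log2 fold change of 0.28 (SE 0.10, adjusted p = 0.313), so it was not shown to differ from the solvent group.

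Between the probes, given at the same dose on the same days, 8 of the 43 genes passed for scrambled 1 over scrambled 2, where 0.205% of all genes tested passed. They were Slc17a2, Prss35, Itih5, Aspn, Thbs2, Tgfbi and Loxl2, lower in scrambled 1 lungs, and Ssbp4, higher. Aspn averaged 381 ± 4.57 CPM in scrambled 1 lungs and 512 ± 43.2 CPM in scrambled 2 lungs (SD, n = 4 each), a log2 fold change of -0.42 (SE 0.08, adjusted p = 0.0182). Ssbp4 averaged 54 ± 4.16 CPM in scrambled 1 lungs and 37.9 ± 3.83 CPM in scrambled 2 lungs, a log2 fold change of 0.51 (SE 0.08, adjusted p = 0.00827). Prss35 had a log2 fold change of -0.38 (SE 0.08, adjusted p = 0.0424) and Thbs2 one of -0.35 (SE 0.07, adjusted p = 0.0424) in this comparison.

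Scrambled 2 over untreated called 0 of all genes in edgeR, with 936 at an unadjusted p under 0.05, and so none of the 43. Median log2 fold changes over untreated of the 24 falls were -0.38 for scrambled 1, -0.12 for scrambled 2, -0.12 for water and 0.02 for daily saline, and of the 19 rises 0.38 for scrambled 1, 0.20 for scrambled 2, 0.31 for water and 0.10 for daily saline. The choice of the genes sets the scrambled 1 medians, and the other medians are over the same untreated libraries that the choice used, so all of them are a description and support no direction. Water over untreated called 5 of the 43, Cemip and Nox4 lower and Hmha1, Cgn and Gimap3 higher, in a comparison that called 0.0494% of all genes. Xist exceeded 10 CPM in 0 of 4 water and 3 of 4 untreated libraries. No fit with Xist as a covariate was made for water over untreated, so sex and injection cannot be told apart there. Gimap3 averaged 16.3 ± 0.78 CPM in scrambled 1, 17.1 ± 0.966 CPM in water and 11.8 ± 1.3 CPM in untreated lungs (SD, n = 4 each), with log2 fold changes over untreated of 0.46 for scrambled 1 and 0.53 for water (adjusted p = 0.0184). Nox4, an NADPH oxidase, averaged 79.2 ± 2.46 CPM in scrambled 1, 72.7 ± 4.93 CPM in water and 93.9 ± 3.74 CPM in untreated lungs, with log2 fold changes over untreated of -0.25 for scrambled 1 and -0.37 for water (adjusted p = 0.00699).

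With Xist as a covariate, 20 of the 24 falls and 15 of the 19 rises passed, and with the share of intronic reads as a covariate 22 falls and 18 rises did. With the spread estimated from the 8 libraries alone, 11 falls and 5 rises passed.

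**Figure D5:**
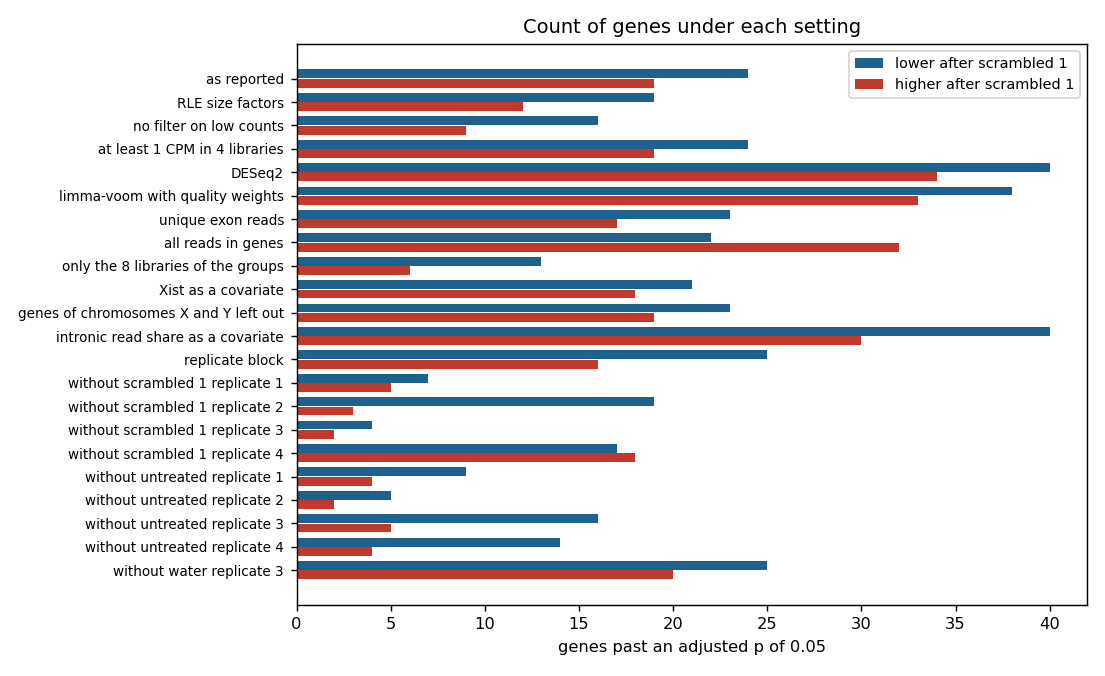
Genes called for scrambled 1 over untreated under each setting (adjusted p under 0.05, horizontal axis), lower genes in blue and higher genes in red. As reported the counts are 24 lower and 19 higher, and every fit without 1 scrambled 1 or untreated library gives fewer of each, down to 4 lower and 2 higher without scrambled 1 replicate 3.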

How the data were processed

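Whole lung RNA was sequenced as stranded mRNA libraries, per the labels' protocols, and the submitters' processing notes name bcl2fastq 2.0. No source used here gives the aligner, the build or how strand was treated. The deposited files give counts of reads per gene for 46165 gene records, made by the authors, and the total exon counts were used, which include reads that map to several places. Of the 43003 gene IDs in the RefSeq table of GRCm38.p6, 97.4% start within 5 kb of that table.

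Counts were fitted in edgeR 4.0.16 (R 4.3.3; filterByExpr, TMM, robust quasi-likelihood test) with all 20 day 14 libraries sharing the spread, and p-values were adjusted by Benjamini-Hochberg over all genes, with a threshold of 0.05. CPM values are TMM-normalised, and SE belongs to the log2 fold change. The script was tested on simulated data. Replicates differed by more than sampling noise (chi-square per gene 2.92 to 9.30). Genes named were, among called genes averaging at least 1 CPM with separate ranges, the 15 largest rises and the 15 largest falls, plus up to 4 members of each list with the smallest p. The comparison and the lists were chosen with earlier results of these data known. Alternatives were DESeq2 1.42.0, limma 3.58.1 voom, other scalings, filters, read classes and covariates, a replicate block, and leaving out each library. The values of 1 called gene are not reported here.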

Additional observations from a re-analysis of the deposited data

Results flagged for a closer look

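In 116 sets of 4 libraries, 1 for each called gene and each described list in either group, 8 held a library far from the other 3 by Dixon's criterion, and chance flags about 1 set in 20. Scrambled 1 replicate 2 was the highest of its group for Slc27a6, at 77.4 CPM, and for H2-Ob, at 22.0 CPM. Scrambled 1 replicate 3 was the highest for Notch4, at 188 CPM. Scrambled 1 replicate 4 was the lowest for Fam174b, at 147 CPM, and for the summed alveolar type 1 genes, at 8579.7 CPM, and scrambled 1 replicate 1 was the lowest for Il17re, at 14.9 CPM. Untreated replicate 4 was the highest of its group for Loxl2, at 349 CPM, and for the summed splicing factors, at 8986 CPM.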

How the results depend on the processing

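The counts of called genes depended on the method. Against 19 higher and 24 lower genes as reported, DESeq2 gave 34 and 40, limma-voom with quality weights 33 and 38, the intronic read share as a covariate 30 and 40, and the fit of only the 8 libraries 6 and 13. Higher genes numbered 12 with RLE size factors, 9 with no filter on low counts and 32 with all reads in genes. Leaving out 1 scrambled 1 or untreated library gave 2 to 18 higher and 4 to 19 lower genes, and fewer samples enter these fits. Leaving out water replicate 3, chosen after the data were seen, gave 20 and 25. Of the 30 named genes, 30 passed with DESeq2 and with voom, 29 with unique reads, 25 with the Xist covariate and 15 with only the 8 libraries. Over all settings, the named genes kept their call in 435 of 629 cases and lost it in 193, and the medians of the 12 lists that were recomputed, of all 52, moved by more than the spread between libraries in 4 cases and stayed within it in 248. Notch4 reversed to -0.16 with all reads in genes. Named genes past the threshold for scrambled 1 over water, 5 as reported, numbered 9 with DESeq2, 8 with the intronic share, 2 with Xist and 2 to 7 with 1 library left out. For scrambled 1 over scrambled 2 they numbered 8, and 0 to 8 with 1 library left out. The cause of these differences was not tested beyond what the fits change by construction. Replicate numbers did not pair the libraries: same-numbered libraries had deviations with r of -0.207 to 0.341, and 2 of 8 libraries correlated best with their own number. The replicate block gave 16 higher and 25 lower genes.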

Other observations

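Summed levels of the Y-linked genes Ddx3y, Eif2s3y, Kdm5d and Uty were 285 and 300.3 CPM in scrambled 1 replicates 1 and 4, and 146 CPM in untreated replicate 1, the 1 untreated library that held them. Over the 20 libraries of day 14, 12 held these genes, and 10 of the 12 lay at 263 to 336 CPM, with untreated replicate 1 and a daily saline library (144 CPM) below them. The libraries of both groups with Xist above 10 CPM held 0 CPM of these genes.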
